A study of Mus musculus with 18 samples.

Results

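The serpins are the genes of serine protease inhibitors and their relatives, described here in lung tumours and lung of mice. They were taken as the probe sets of the array whose platform annotation gave a single symbol beginning with Serpin, and each gene was read from its brightest probe set on average across the 18 arrays. This rule used no difference between groups. It gave 40 serpin genes of the 18193 genes measured, of which 14 belong to clade A, 18 to clade B, 2 to clade F, 2 to clade I and 1 each to clades C, D, G and H. In all 59 probe sets carried a serpin symbol, and 3 of them were left out because they name several serpins. The 40 symbols matched RefSeq symbols for the mouse. Of the clade A genes, 13 lie on chromosome 12 and Serpina7 lies on the X chromosome. Of the clade B genes, 7 lie on chromosome 1 and 11 on chromosome 13.

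Serpin proteins share one fold. Most of them trap a serine protease in a covalent complex by offering it a reactive loop as bait, and some members carry hormones, chaperone collagen or inhibit nothing. Clade A and clades C, D, F and G are mainly blood proteins made in the liver that hold elastase, thrombin, plasmin and the first complement proteases in check, while clade B serpins stay mostly inside cells and guard leukocytes and epithelia against proteases of their own granules. In the lung the balance between neutrophil elastase and its serpin inhibitors is the textbook example, because a lack of antitrypsin leads to emphysema in humans.

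The study measured lung RNA of B6C3F1/N mice, the hybrid on which many chronic toxicity studies are run, on Affymetrix 3′ expression arrays. The mice were 5 to 6 weeks old when exposure began and inhaled cobalt metal aerosol at 0 to 5 mg/m3, 6 hours a day on 5 days a week for up to 105 weeks. Cobalt tumours, which are lung tumours of cobalt-exposed mice, were on 6 arrays, spontaneous tumours on 6, and control lung of mice given the vehicle on 6. The design text compares each tumour group with control lung, and cobalt tumours were set against spontaneous tumours here in addition. The dose, sex and age at sampling of single mice were not used here, since the labels do not state them. The tumours were cut out of the remaining lung and frozen, so a tumour array holds tumour cells with the vessels, connective tissue and leukocytes around them, whereas a control array holds whole lung with its airways. The labels do not say whether the arrays of 1 group are separate mice, and p-values then reflect array-to-array spread alone, which may be technical.

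Values are log2 levels, and a difference of 1 is a factor of 2 in signal. A gene is called when the adjusted p of limma, a linear model fitted over all genes with Benjamini-Hochberg adjustment, is at or under 0.05. Levels of different genes come from different probes and are not compared. Sftpc, the surfactant gene that marks alveolar type 2 cells, lay between 14.27 and 15.26 on every array. Some arrays stood apart from their groups. Cobalt tumour 6 lay towards the control lungs on the first principal component of all genes, at -24.5, against 36.1 to 60.6 for the other cobalt tumours and -67.7 to -63.7 for the control lungs. Control lungs 2 and 4 had means of 8.38 and 8.88 over 11 hepatocyte markers, against 5.75 to 6.71 in the other control lungs. Control lung 1 had a mean of 12.92 over 8 neutrophil markers, against 6.98 to 8.90 in the other control lungs. One line of the labels of control lung 6 names a spontaneous tumour, while its title, tissue and group name control lung. Its mean correlation over genes was 0.92 with the spontaneous tumours and 0.989 with the other control lungs. Xist, which is transcribed from the inactive X chromosome of females, was above 10 on 4 cobalt tumour, 2 spontaneous tumour and 6 control arrays.

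The promoters of 4 serpins are shown because these genes vary most between arrays: an antitrypsin pair that was high in some control lungs and a clade B pair that was high in some tumours. The sequences are those of RefSeq on GRCm38.p6, cover 300 bases around the start of the gene, and are written 5′ to 3′ on the strand of the gene. Serpina1b lies at chr12:103738140-103738439 and Serpina1c at chr12:103904901-103905200, both on the minus strand. Serpinb2 lies at chr1:107511173-107511472 and Serpinb5 at chr1:106860925-106861224, both on the plus strand. Capitals mark matches, searched on both strands, to a half-site of the liver factor HNF1 (GTTAAT) and to a loose form of the site of the stress-responsive factor AP-1. The loose form was TGANTCA, where N is any base.
Serpina1b: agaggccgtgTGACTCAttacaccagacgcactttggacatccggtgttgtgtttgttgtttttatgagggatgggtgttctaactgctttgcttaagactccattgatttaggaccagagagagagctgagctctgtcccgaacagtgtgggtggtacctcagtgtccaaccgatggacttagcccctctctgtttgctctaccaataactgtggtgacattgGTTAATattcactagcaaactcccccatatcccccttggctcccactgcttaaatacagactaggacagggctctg
Serpina1c: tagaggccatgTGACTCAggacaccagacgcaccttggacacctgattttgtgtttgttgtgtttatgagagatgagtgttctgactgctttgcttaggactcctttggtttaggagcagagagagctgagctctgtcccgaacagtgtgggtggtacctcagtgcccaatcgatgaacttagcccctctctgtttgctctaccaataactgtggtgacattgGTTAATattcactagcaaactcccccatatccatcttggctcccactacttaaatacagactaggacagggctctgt
Serpinb2: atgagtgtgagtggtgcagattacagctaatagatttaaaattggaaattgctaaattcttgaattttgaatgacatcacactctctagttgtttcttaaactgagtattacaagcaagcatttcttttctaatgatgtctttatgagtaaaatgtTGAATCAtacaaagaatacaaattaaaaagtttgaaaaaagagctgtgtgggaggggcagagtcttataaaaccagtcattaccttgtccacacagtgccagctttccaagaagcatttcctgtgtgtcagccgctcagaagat
Serpinb5: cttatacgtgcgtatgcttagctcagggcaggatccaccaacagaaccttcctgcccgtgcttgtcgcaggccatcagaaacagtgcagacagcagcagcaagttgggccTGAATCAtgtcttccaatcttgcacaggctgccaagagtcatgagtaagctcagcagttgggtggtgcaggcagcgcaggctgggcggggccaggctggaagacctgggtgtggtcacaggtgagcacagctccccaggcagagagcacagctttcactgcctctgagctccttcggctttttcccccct
The antitrypsin promoters were identical at 276 of 302 aligned positions (91.4%), and each held 1 HNF1 half-site and 1 AP-1 match, which did not overlap. The Serpinb2 and Serpinb5 promoters were identical at 50.7% of aligned positions, each held 1 AP-1 match, and neither held the HNF1 half-site. As written, the AP-1 match was TGACTCA in both antitrypsin promoters and TGAATCA in those of Serpinb2 and Serpinb5. The half-site stood in 7.1% of the 32851 promoters of the table and the AP-1 letters in 7.81%. A promoter was found for 34 of the 40 serpins, which have 40 entries between them, and 6 of these entries held the half-site and 9 the AP-1 letters. These matches describe the letters of the windows and show no binding.

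Most serpin genes had no call against control lung, 30 of 40 in cobalt and 31 of 40 in spontaneous tumours. Against control lung, 1 serpin rose in cobalt tumours (Serpinb5) and 9 fell, where 14.7% of all genes rose and 19.3% fell, or 34% in either direction. In spontaneous tumours 0 serpins rose and 9 fell by limma (1 higher at an unadjusted p under 0.05, and 0 by exact permutation after adjustment), where 16.4% of all genes rose and 18.2% fell, or 34.6% in either direction. The serpins' shares were 25% and 22.5% of 40. Without the 6064 dimmest genes, 7 of 14 serpins (50.0%) were called in cobalt tumours, where 44.7% of all genes were, and 3 of 14 (21.4%) in spontaneous tumours, where 44.9% of all genes were. The median difference of the 40 serpins was -0.05 in cobalt tumours and -0.04 in spontaneous tumours, against -0.03 for all genes in both comparisons. The groups did not overlap for 6 serpins in cobalt tumours (15%, against 18.9% of all genes) and for 2 in spontaneous tumours (5%, against 21.1% of all genes). Both comparisons use the same 6 control lungs. Of the serpins called lower, 5 were called in both, 4 in cobalt tumours alone and 4 in spontaneous tumours alone, which does not show that the tumour groups differ. The 6064 dimmest genes of the array held 26 of the 40 serpins, and 6 of the 14 serpins called in any comparison were among them.

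**Figure D1:**
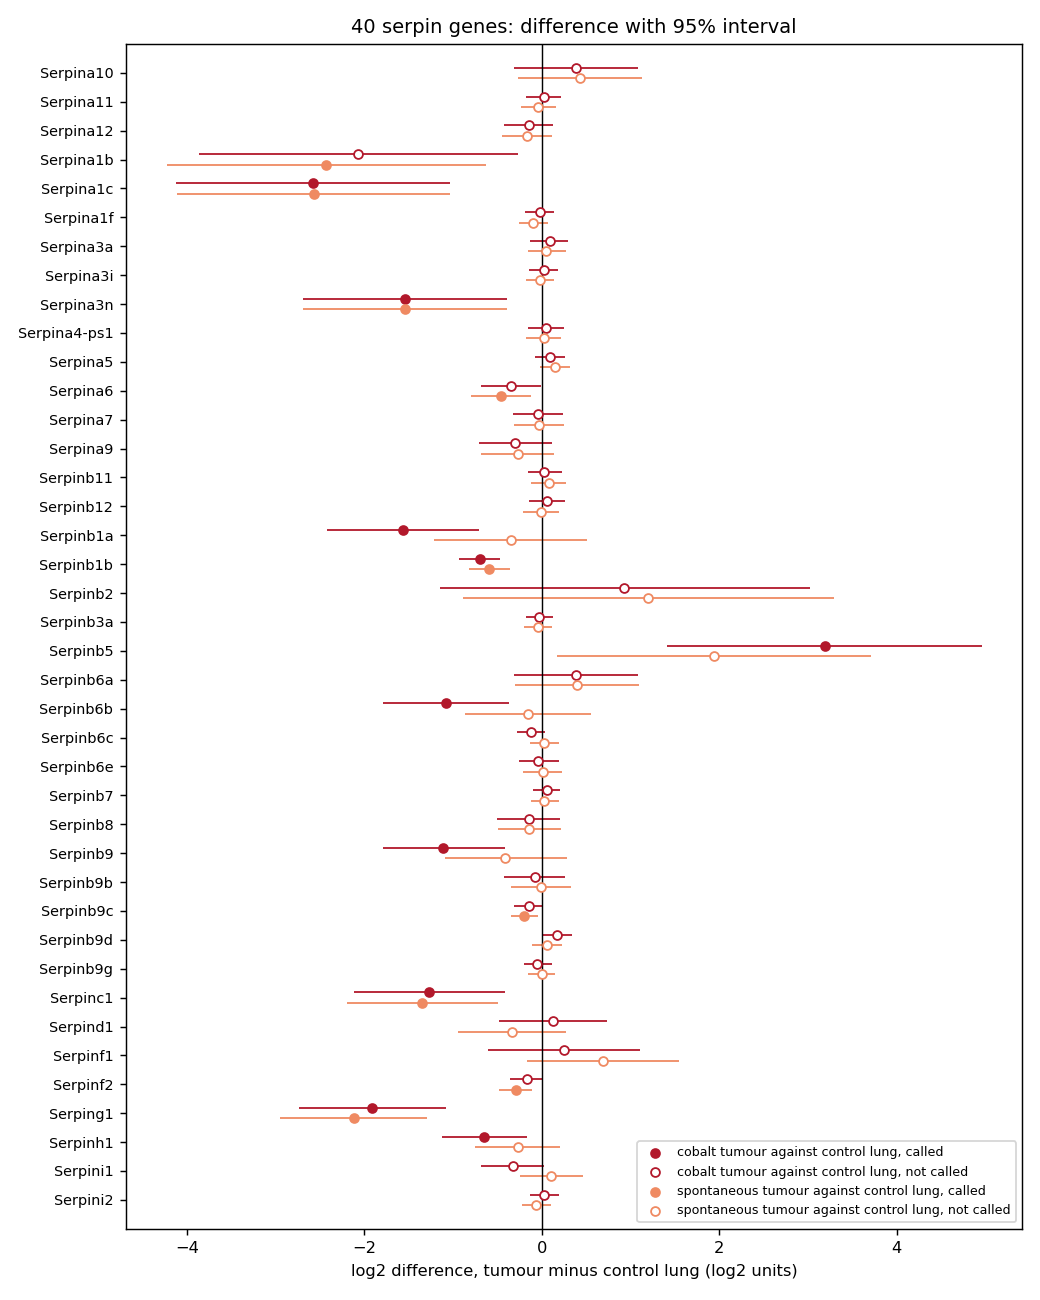
Differences of the 40 serpin genes in log2 units, tumour minus control lung, with 95% intervals. Each gene has cobalt tumours on the upper line and spontaneous tumours on the lower line, and filled points are called at an adjusted p of 0.05. Serpinb5 is the filled point to the right of 0, and the other filled points lie to the left.

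Among the blood-protein serpins, antitrypsin and antithrombin were lower in tumours, and the control lungs spread widely for both. Serpina1c, one of the antitrypsin copies of the mouse and an inhibitor of neutrophil elastase, ranged from 4.18 over a median of 4.61 to 4.96 in cobalt tumours. Its level ran from 4.40 over 4.57 to 4.95 in spontaneous tumours and from 4.61 over 6.56 to 10.16 in control lungs. All tumours were low, and control lungs 2 and 4 were the highest at 9.70 and 10.16. Serpina1c fell by 2.58 in cobalt tumours (SE 0.73, 5.99-fold, adjusted p of limma 0.0106) and by 2.57 in spontaneous tumours (SE 0.73, 5.94-fold, adjusted p of limma 0.011). Without control lungs 2 and 4 the falls were 1.20 (adjusted p 0.0223) and 1.19 (adjusted p 0.0236), a choice made after seeing the data.

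Serpina1b, another antitrypsin copy, had a lowest, median and highest level of 4.68, 5.06 and 6.65 in cobalt tumours, 4.50, 4.95 and 6.09 in spontaneous tumours, and 4.90, 6.49 and 10.72 in control lungs. Control lungs 2 and 4 were again the high arrays, at 10.72 and 10.60, while control lung 1 lay among the tumours. The gene was called lower in spontaneous tumours by 2.43 (SE 0.86, adjusted p of limma 0.0353), and the difference of -2.07 in cobalt tumours was not called (SE 0.86, adjusted p 0.0723). The spontaneous call was lost when control lung 2, 4 or 6 or spontaneous tumour 1, 2, 3, 4 or 5 was left out (adjusted p up to 0.0874), and a cobalt call was gained without control lung 1, 3 or 5 (adjusted p down to 0.0237). Without control lungs 2 and 4 neither was called, at -0.84 (adjusted p 0.198) in spontaneous and -0.48 (adjusted p 0.493) in cobalt tumours. A second Serpina1b probe set passed the threshold in both tumour groups. It gave -2.12 in cobalt and -2.27 in spontaneous tumours (adjusted p of limma over all probe sets 0.046 and 0.034). The antitrypsin copies are nearly identical and the Serpina1b probe sets are of a kind that can take up transcripts of relatives, so which copy was measured is uncertain.

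Antithrombin, encoded by Serpinc1, blocks thrombin and factor Xa in blood. Its lowest, median and highest level was 5.44, 5.63 and 5.74 in cobalt tumours, 5.40, 5.50 and 5.65 in spontaneous tumours, and 5.90, 6.19 and 8.86 in control lungs. No tumour reached the lowest control lung, and control lungs 2 and 4 were the highest at 8.12 and 8.86. Serpinc1 fell by 1.27 in cobalt tumours (SE 0.40, adjusted p of limma 0.0213) and by 1.35 in spontaneous tumours (SE 0.40, adjusted p of limma 0.0154). The falls were 0.46 (adjusted p 0.00354) and 0.54 (adjusted p 0.00123) without both of these control lungs, a choice made after seeing the data. The call in cobalt tumours held in 26 of 31 alternative fits. Leaving out control lung 2 alone ended it (-1.02, adjusted p 0.0559), as did array weights (-1.03, adjusted p of limma 0.0751). It was also lost on only the 12 arrays compared (adjusted p of limma 0.0531) and on the arrays with Xist above 10 (0.124). Without cobalt tumours 4 and 5 and spontaneous tumours 2 and 6 the adjusted p of limma was 0.0772.

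Serpina6, the corticosteroid-binding globulin of blood, followed the same arrays at a low level. It lay at 4.42, 4.65 and 4.70 (lowest, median, highest) in cobalt tumours, 4.41, 4.46 and 4.68 in spontaneous tumours, and 4.41, 4.82 and 5.70 in control lungs. The groups overlapped, and control lungs 2 and 4 stood highest at 5.35 and 5.70. It was called lower in spontaneous tumours by 0.46 (SE 0.16, adjusted p of limma 0.0332) and had a difference of -0.35 in cobalt tumours (adjusted p 0.106). The spontaneous call was lost without control lung 2 or 4 or spontaneous tumour 3, 4, 5 or 6 (adjusted p up to 0.0824), and a cobalt call was gained without control lung 1 (-0.46, adjusted p 0.0249). With control lungs 2 and 4 both left out the difference in spontaneous tumours was -0.18 (adjusted p 0.176).

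Hepatocyte markers moved with these serpins between control lungs. The mean over the 11 markers ran from 5.86 to 7.15 in cobalt tumours, 5.62 to 6.61 in spontaneous tumours and 5.75 to 8.88 in control lungs. Of the 11 markers, 2 were called lower in cobalt tumours (18.2%, against 19.3% of all genes). In spontaneous tumours 3 were called lower (27.3%, against 18.2% of all genes). So few calls are not read as a result about these markers. Fgb, a fibrinogen chain, was at 7.06 and 8.20 in control lungs 2 and 4 and at 4.69 to 5.42 in the other 4. Alb, albumin, was at 12.80 and 12.83 there, and also at 12.44 in cobalt tumour 3, where Serpina1b was highest of its group. Other cobalt tumours did not follow this order. Cobalt tumour 1 had a marker mean of 6.91 with the lowest Serpina1b of the group, 4.68. Cobalt tumour 6 had the lowest marker mean, 5.86, with Serpina1b at 6.16. The part of liver transcripts in the serpin values was not tested beyond the fits without control lungs 2 and 4.

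**Figure D2:**
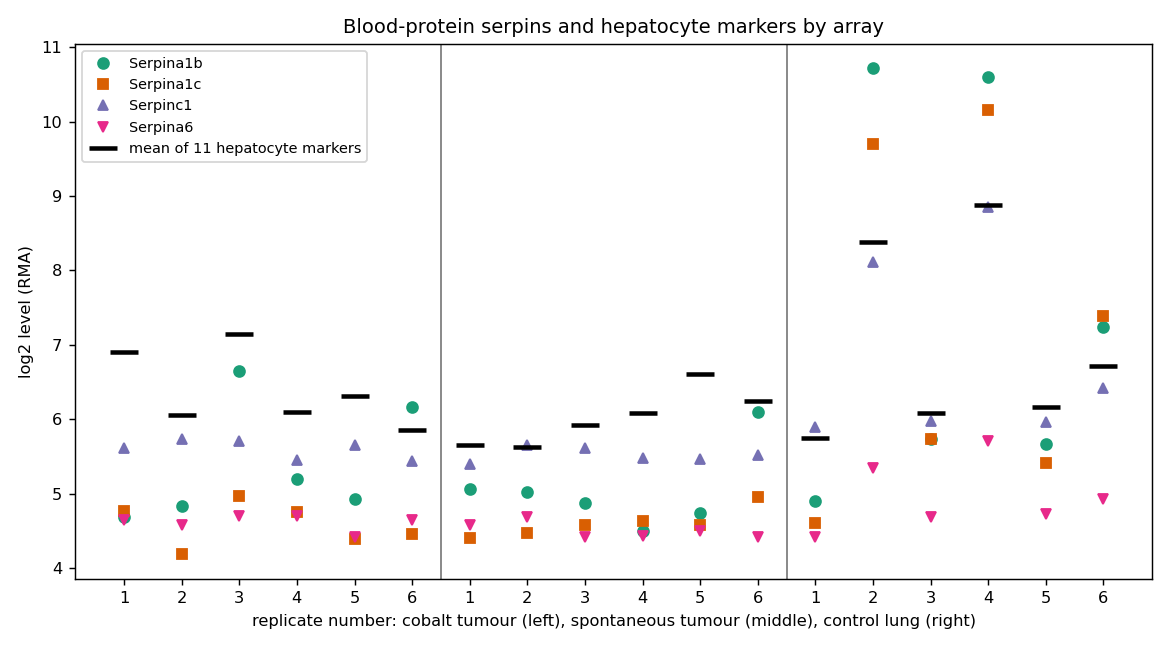
Log2 levels of Serpina1b, Serpina1c, Serpinc1 and Serpina6 on each array, with the mean of 11 hepatocyte markers as a bar. Control lungs 2 and 4, at the right, hold the highest value of each gene and of the marker mean, 8.38 and 8.88.

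Other liver-made serpins had small or uncalled differences. Serpinf2, the plasmin inhibitor of blood, lay at 6.94, 7.14 and 7.21 (lowest, median, highest) in cobalt tumours, 6.69, 7.04 and 7.13 in spontaneous tumours, and 7.11, 7.25 and 7.59 in control lungs. It fell by 0.29 in spontaneous tumours (SE 0.09, adjusted p of limma 0.0151) and had a difference of -0.17 in cobalt tumours (adjusted p 0.142), and the fall was -0.22 with an adjusted p of 0.0749 without control lungs 2 and 4. Serpind1, a thrombin inhibitor that heparin-like sugars activate, was called in neither tumour group. Single tumours stood out for Serpind1, with cobalt tumour 5 at 8.40 against 6.57 to 7.10 in the other cobalt tumours, and spontaneous tumour 2 at 7.74 against 6.18 to 6.65. Serpina10, which blocks factor Xa together with protein Z, had a difference of 0.39 (adjusted p 0.407) in cobalt and 0.43 (adjusted p 0.338) in spontaneous tumours. Serpinf1, the non-inhibitory PEDF, reached 10.76 in cobalt tumour 3 and 10.78 and 10.48 in spontaneous tumours 3 and 4, against 8.75 to 9.21 in control lungs. Its difference in spontaneous tumours was 0.69 (adjusted p 0.208), and 1.02 (adjusted p 0.0336) without spontaneous tumour 2, which had 8.02.

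Of the serpin falls that held in every alternative fit, that of the complement regulator was the largest. Serping1 encodes the inhibitor of the first complement component, which also blocks plasma kallikrein and is made by many tissues. Its lowest, median and highest level was 8.98, 10.41 and 11.99 in cobalt tumours, 9.09, 9.92 and 10.92 in spontaneous tumours, and 12.06, 12.13 and 12.34 in control lungs. Every tumour lay below every control lung, and cobalt tumour 6, at 11.99, came nearest. Serping1 fell by 1.91 in cobalt tumours (SE 0.39, 3.75-fold, adjusted p of limma 0.00105) and by 2.12 in spontaneous tumours (SE 0.39, 4.35-fold, adjusted p of limma 0.00044). Without cobalt tumour 6, Serping1 fell by 2.25 in cobalt tumours (adjusted p 2.48e-05). In such bulk samples fewer cells of a type and less RNA per cell cannot be told apart.

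Serpina3n, a mouse relative of antichymotrypsin that rises in the acute phase and blocks granzyme B and elastase, was high in control lungs and uneven among tumours. Cobalt tumours had 6.82, 8.26 and 10.48 (lowest, median, highest), spontaneous tumours 6.22, 8.57 and 9.75, and control lungs 9.52, 9.97 and 10.08. In all 5 of 6 cobalt tumours lay below every control lung, while cobalt tumour 6 lay above them, and 5 of 6 spontaneous tumours lay below. Serpina3n fell by 1.54 in both tumour groups (SE 0.55, adjusted p of limma 0.0367 in cobalt and 0.0366 in spontaneous tumours). The call depended on single arrays. It was lost in cobalt tumours when control lung 1, 2, 4, 5 or 6 or cobalt tumour 1, 3, 4 or 5 was left out (adjusted p up to 0.0934), and was kept with a fall of 1.96 and an adjusted p of 0.00347 without cobalt tumour 6. In spontaneous tumours it was lost without control lung 1, 2, 4, 5 or 6 or spontaneous tumour 2, 3 or 5 (adjusted p up to 0.0845). On the arrays with Xist above 10, the difference was -1.0 in cobalt tumours (adjusted p of limma 0.0663) and -0.39 in spontaneous tumours (adjusted p of limma 0.583).

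Markers of lung stroma and vessels were mostly called lower in both tumour groups, against 19.3% and 18.2% of all genes in cobalt and spontaneous tumours. Of 15 endothelial markers 14 were called lower in each tumour group, with means of 7.85 to 10.58 in cobalt tumours, 8.12 to 9.60 in spontaneous tumours and 11.37 to 11.74 in control lungs. Of 13 fibroblast markers 9 were called lower in each, and 1 was called higher in spontaneous tumours. The fibroblast means were 7.34 to 10.45, 7.26 to 9.60 and 10.74 to 11.25 in cobalt tumours, spontaneous tumours and control lungs. Cobalt tumour 6 held the highest of both means among tumours, 10.58 and 10.45. Spontaneous tumour 6 had the highest Serpina3n of its group, 9.75, with the lowest endothelial mean, 8.12, and a fibroblast mean of 8.91. Lower markers were not particular to vessels and fibroblasts. In each tumour group 10 of 11 smooth muscle and pericyte, 8 of 10 alveolar type 1 and 6 of 8 mesothelial markers were called lower. The part of vessel and stroma content in the falls of Serping1 and Serpina3n was not tested.

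**Figure D3:**
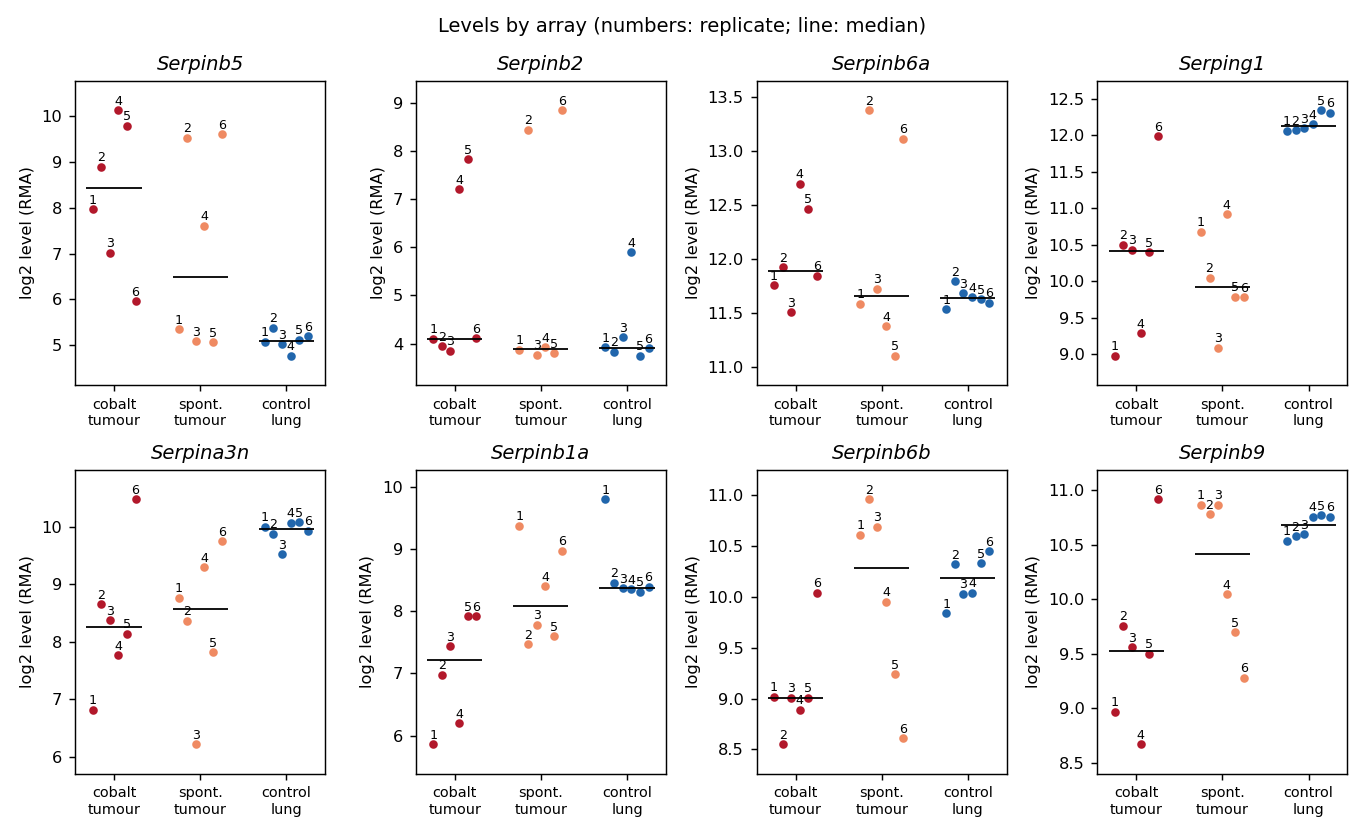
Log2 levels of 8 serpins on each array, with replicate numbers beside the points and a line at each group's median; the vertical scales differ and do not start at 0. Serpinb2 and Serpinb6a have their highest points in cobalt tumours 4 and 5 and spontaneous tumours 2 and 6, and every tumour lies below the control lungs for Serping1.

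Serpinb5 was the only serpin called higher. It encodes maspin, an epithelial clade B protein that binds to other proteins and does not inhibit proteases in the usual way. In cobalt tumours 1 to 6 its level was 7.96, 8.89, 7.02, 10.11, 9.78 and 5.96, and in spontaneous tumours 1 to 6 it was 5.36, 9.52, 5.09, 7.60, 5.07 and 9.59. Control lungs 1 to 6 had 5.08, 5.39, 5.03, 4.78, 5.13 and 5.20. All 6 cobalt tumours lay above all control lungs, while spontaneous tumours split into 3 above and 3 at the level of control lung. Serpinb5 rose in cobalt tumours by 3.19 (SE 0.84, 9.11-fold, adjusted p of limma 0.00666), and the difference of 1.94 in spontaneous tumours was not called (SE 0.84, adjusted p 0.0848). It was called there when spontaneous tumour 3 or 5 was left out (lowest adjusted p 0.0447). The 3 other probe sets of Serpinb5 gave differences of 3.54, 4.06 and 3.71 in cobalt tumours (adjusted p over all probe sets 0.00183, 0.00118 and 0.00253) and 1.75, 2.05 and 1.77 in spontaneous tumours (adjusted p 0.097, 0.0733 and 0.126).

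Serpinb2, an inhibitor of urokinase that macrophages and stressed epithelium make, was high in 4 tumours and low in the rest. Its level was 7.20 and 7.83 in cobalt tumours 4 and 5 and 8.44 and 8.84 in spontaneous tumours 2 and 6. The other 8 tumours had 3.77 to 4.11, and control lungs had 3.75 to 4.13 except for replicate 4 with 5.90. Neither tumour group was called against control lung, at 0.93 (SE 0.99, adjusted p of limma 0.514) in cobalt and 1.20 (SE 0.99, adjusted p of limma 0.374) in spontaneous tumours.

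The same 4 tumours were the highest of their groups for Serpinb6a and Serpinb5. Serpinb6a, a widely expressed inhibitor of cathepsin G and related proteases, was at 12.70 and 12.47 in cobalt tumours 4 and 5 and at 13.38 and 13.12 in spontaneous tumours 2 and 6, against 11.11 to 11.93 on the other 14 arrays. Its differences from control lung were 0.38 (adjusted p 0.411) and 0.40 (adjusted p 0.378) in cobalt and spontaneous tumours. Plaur, the urokinase receptor, was at 10.06 and 10.44 in cobalt tumours 4 and 5, 10.70 and 10.95 in spontaneous tumours 2 and 6, and at most 9.75 elsewhere. Plaur is named because it was high in these tumours. Plau, the urokinase gene itself, stayed between 4.68 and 5.59 on all arrays. The mean of 11 alveolar type 2 markers was 13.04 and 13.25 in these cobalt tumours and 12.38 and 12.10 in these spontaneous tumours, the lowest 2 values of each group. These 4 tumours were picked out by their Serpinb2 level, so no test was made of them against the others.

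Of the 11 clade B genes of chromosome 13, 5 were called in at least 1 tumour group, each of them lower. Serpinb1a, Serpinb6b and Serpinb9 were called in cobalt tumours alone, Serpinb9c in spontaneous tumours alone and Serpinb1b in both. Of all 18 clade B genes 27.8% were called in cobalt and 11.1% in spontaneous tumours, against 34% and 34.6% of all genes. Serpinb1a blocks neutrophil elastase, cathepsin G and related granule proteases inside neutrophils and epithelium. Its lowest, median and highest level was 5.86, 7.21 and 7.92 in cobalt tumours, 7.47, 8.09 and 9.37 in spontaneous tumours, and 8.31, 8.38 and 9.80 in control lungs. All cobalt tumours lay below all control lungs, while 3 of 6 spontaneous tumours lay below all control lungs and none lay above the highest. Serpinb1a fell by 1.56 in cobalt tumours (SE 0.41, 2.96-fold, adjusted p of limma 0.00603), and the difference in spontaneous tumours was -0.35 (SE 0.41, adjusted p 0.539). Control lung 1, the array with the high neutrophil markers, was the highest control at 9.80, and without it the fall in cobalt tumours was 1.33 (adjusted p 0.0165). None of the 8 neutrophil markers was called by limma in either tumour group (at an unadjusted p under 0.05, 3 were lower in cobalt and 1 in spontaneous tumours). Markers of airway epithelium were lower in tumours, where 19.3% of all genes were called lower in cobalt and 18.2% in spontaneous tumours. Of 9 club cell markers 9 were called lower in cobalt and 5 in spontaneous tumours, with means of 7.65 to 12.08 in cobalt tumours, 9.68 to 11.13 in spontaneous tumours and 12.46 to 12.62 in control lungs. Of 10 ciliated cell markers 10 were called lower in each tumour group, with means of 5.81 to 7.82 in cobalt tumours, 5.92 to 6.89 in spontaneous tumours and 8.28 to 8.64 in control lungs. Their part in the fall of Serpinb1a was not tested. A second, dimmer Serpinb1a probe set had a difference of -0.26 in cobalt tumours (adjusted p over all probe sets 0.395).

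Serpinb1b, a close relative of Serpinb1a, was dim on all arrays and had the lowest adjusted p of the serpins in cobalt tumours. Cobalt tumours had 4.14, 4.17 and 4.28 (lowest, median, highest), spontaneous tumours 4.05, 4.33 and 4.51, and control lungs 4.44, 4.90 and 5.25. It fell by 0.70 in cobalt tumours (SE 0.11, adjusted p of limma 0.000101) and by 0.59 in spontaneous tumours (SE 0.11, adjusted p of limma 0.000446). Only spontaneous tumour 4, at 4.51, reached the lowest control lung.

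Serpinb9 protects lymphocytes and antigen-presenting cells from granzyme B, and Serpinb6b is a relative of Serpinb6a. For Serpinb9, cobalt tumours had 8.67, 9.53 and 10.92 (lowest, median, highest), spontaneous tumours 9.28, 10.42 and 10.87, and control lungs 10.54, 10.68 and 10.77. Serpinb6b had 8.55, 9.01 and 10.04 in cobalt tumours, 8.61, 10.28 and 10.96 in spontaneous tumours, and 9.84, 10.18 and 10.45 in control lungs. For both genes 5 of 6 cobalt tumours lay below all control lungs, cobalt tumour 6 was the exception, and the spontaneous tumours lay above and below the controls. Serpinb9 fell by 1.11 in cobalt tumours (SE 0.33, adjusted p of limma 0.0137) and Serpinb6b by 1.08 (SE 0.34, adjusted p of limma 0.0184). In spontaneous tumours the differences were -0.41 (adjusted p 0.358) for Serpinb9 and -0.16 (adjusted p 0.747) for Serpinb6b. A second Serpinb9 probe set gave -1.21 in cobalt tumours (adjusted p over all probe sets 0.0307). The Serpinb6b call was lost without control lungs 2 and 4 (-1.08, adjusted p 0.0585).

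Markers of T and NK cells, which carry granzymes, were often called lower too, against 19.3% and 18.2% of all genes in cobalt and spontaneous tumours. Of 10 such markers 8 were called lower in cobalt and 7 in spontaneous tumours, and their means ran from 6.00 to 6.56 in cobalt tumours, 5.99 to 7.47 in spontaneous tumours and 7.02 to 7.56 in control lungs. Gzma, the granzyme A gene, fell by 2.89 in cobalt tumours (adjusted p of limma 7.34e-06) and by 2.59 in spontaneous tumours (adjusted p of limma 2.17e-05). Macrophage markers, of antigen-presenting cells, moved mostly the other way. Calls made 58.3% and 66.7% of the list in cobalt and spontaneous tumours, against 34% and 34.6% of all genes. Of 12 macrophage markers 5 were called higher and 2 lower in cobalt tumours, and 7 higher and 1 lower in spontaneous tumours, with means of 8.57 to 9.73 in cobalt tumours, 9.09 to 10.31 in spontaneous tumours and 8.31 to 9.11 in control lungs. The part of these cells in the fall of Serpinb9 was not tested. Serpinb9c, a dim relative of Serpinb9, had 4.18, 4.27 and 4.41 (lowest, median, highest) in cobalt tumours, 4.07, 4.27 and 4.38 in spontaneous tumours, and 4.25, 4.42 and 4.61 in control lungs. The groups overlapped, and the call in spontaneous tumours (-0.20, SE 0.07, adjusted p of limma 0.0462) was lost in 12 of 18 fits that left out 1 array, namely cobalt tumour 1, 2, 4 or 5, spontaneous tumour 1, 2, 3 or 4 or control lung 1, 2, 3 or 4, with an adjusted p of up to 0.105. A second probe set of the gene had a difference of 0.04 (adjusted p over all probe sets 0.666).

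**Figure D4:**
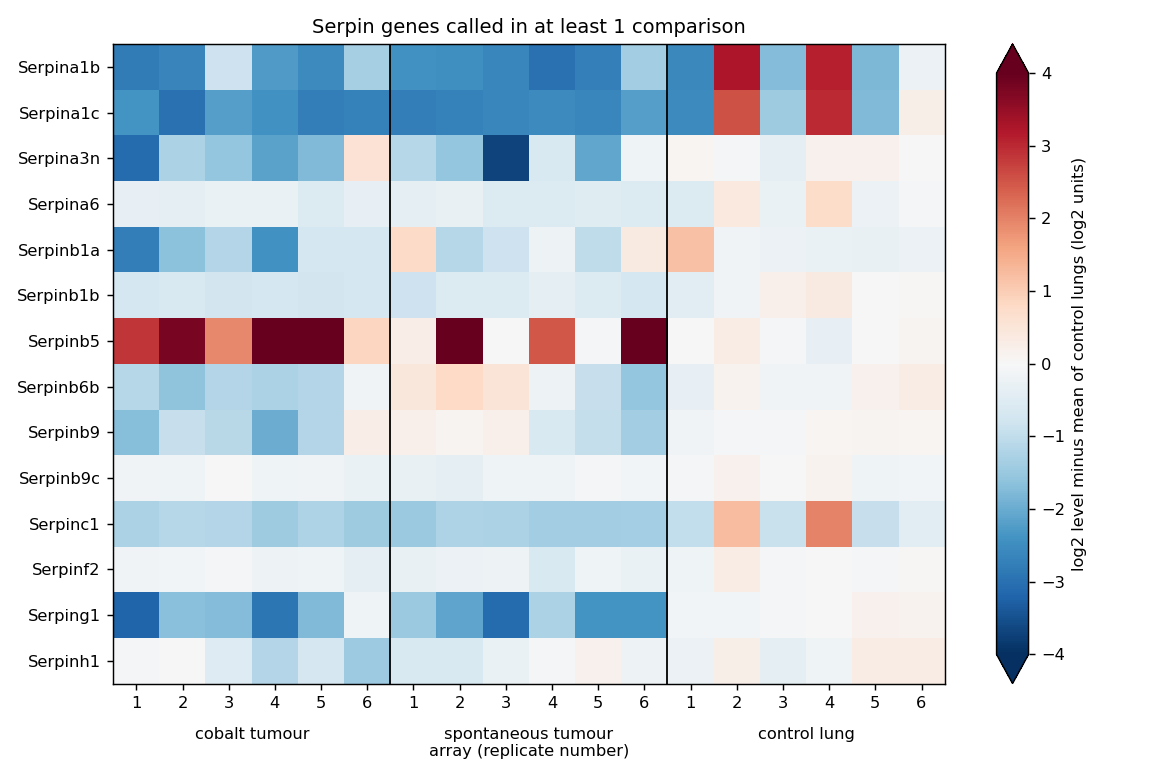
Log2 level minus the mean of the 6 control lungs for the 14 serpins called in at least 1 comparison, with 1 column per array. Red is higher and blue lower than the control mean. Serpinb5 is red across the cobalt tumours and in spontaneous tumours 2, 4 and 6, and Serpina1b, Serpina1c and Serpinc1 are red in control lungs 2 and 4.

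Serpinh1, the collagen chaperone of the endoplasmic reticulum, has no protease as its target. Its lowest, median and highest level was 9.84, 10.69 and 11.27 in cobalt tumours, 10.66, 11.05 and 11.45 in spontaneous tumours, and 10.88, 11.31 and 11.59 in control lungs. Below all control lungs lay 4 of 6 cobalt tumours and 2 of 6 spontaneous tumours. Serpinh1 was called lower in cobalt tumours by 0.65 (SE 0.23, adjusted p of limma 0.0354), and the difference of -0.27 in spontaneous tumours was not called (adjusted p 0.39). The call was lost when control lung 2, 5 or 6 or cobalt tumour 4, 5 or 6 was left out (adjusted p up to 0.0865), and a second probe set had -0.34 (adjusted p over all probe sets 0.265).

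Genes that work with this chaperone on collagen moved in both directions. Of 26 measured, 5 were called higher and 8 lower in cobalt tumours, and 8 higher and 8 lower in spontaneous tumours. The calls made 50.0% and 61.5% of the list, where 34% and 34.6% of all genes were called. Plod2, a lysyl hydroxylase, fell by 1.80 in cobalt tumours (adjusted p of limma 0.00557) and by 1.28 in spontaneous tumours (adjusted p of limma 0.0393). Col5a2, a fibrillar collagen chain, rose by 0.85 and by 1.12 in cobalt and spontaneous tumours (adjusted p of limma 0.00544 and 0.000665). Their median differences were -0.20 in cobalt tumours and 0.03 in spontaneous tumours.

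The remaining serpins were called by limma in no comparison, and 20 of these 26 were among the 6064 dimmest genes. Of the 20, 14 ranged over less than 1 log2 unit across the 18 arrays, and the deposited values do not show which readings are above background. In clade A they were Serpina1f, Serpina3a, Serpina3i, the pseudogene Serpina4-ps1, Serpina5 (the protein C inhibitor), Serpina7 (the thyroxine carrier), Serpina9 (of germinal centre B cells) and Serpina12 (vaspin, an adipose hormone). Serpina9 had the widest range of these, 4.25 to 5.68, with differences of -0.30 (adjusted p 0.271) in cobalt tumours and -0.27 (adjusted p 0.307) in spontaneous tumours, the second of which was -0.46 (adjusted p 0.0233) without spontaneous tumour 6. In clade B they were Serpinb2, described above, Serpinb3a, Serpinb6c, Serpinb7, Serpinb8 (an inhibitor of furin), Serpinb9b, Serpinb9d, Serpinb9g, Serpinb11 and Serpinb12. All 6 cobalt tumours lay below all control lungs for Serpinb6c, by a mean of 0.12 (adjusted p of limma 0.243, and 0.0115 by the exact permutation test). Serpini1, which blocks tissue plasminogen activator in nerve cells, and Serpini2 complete the dim group, and Serpini1 had a difference of -0.33 (adjusted p 0.155, or 0.0273 without spontaneous tumour 6) in cobalt tumours. Its adjusted p of limma was 0.0362 on only the 12 arrays compared. With the mean of its probe sets the difference was -0.21 (adjusted p of limma 0.0299). Its other probe sets gave -0.29 and -0.02 in cobalt tumours (adjusted p of limma over all probe sets 0.0174 and 0.787). Outside the dim group, Serpina10, Serpina11, Serpinb6a, Serpinb6e, Serpind1 and Serpinf1 were not called. Serpina11 stayed between 6.88 and 7.44 and Serpinb6e between 7.93 and 8.55 on all arrays.

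Cobalt tumours and spontaneous tumours were not told apart by any serpin at these array numbers. None of the 40 was called between them by limma, where 0.0824% of all genes were called, and no serpin separated the groups without overlap, where 0.616% of all genes did. In this comparison 4 serpins had an unadjusted p of limma under 0.05, namely Serpinb1a, Serpinb6b, Serpinb9 and Serpini1, each lower in cobalt tumours. The share of all genes at this unadjusted threshold is not given here, so the count is not read as a pattern of the serpins. The difference of Serpinb1a was -1.22 with a 95% interval of -2.07 to -0.36 and an adjusted p of 0.243, the smallest of the 40. That of Serpinb6b was -0.92, with an interval of -1.63 to -0.21 and an adjusted p of 0.282. By an exact permutation test over the arrays, 2 serpins had an unadjusted p under 0.05 and 0 passed the adjustment. For Serpinb5 the interval ran from -0.53 to 3.02 around a difference of 1.25. The intervals reached between 0.16 and 2.08 log2 units to each side of the estimate, and differences within a gene's interval were not excluded.

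Among the protease lists, the lysosomal cathepsins had the largest share of calls. Of 14 lysosomal cathepsins, 8 rose and 1 fell in cobalt tumours, and 10 rose and 1 fell in spontaneous tumours. These calls made 64.3% and 78.6% of the list, where 34% and 34.6% of all genes were called. Ctse rose by 3.62 in cobalt tumours (adjusted p of limma 0.00402) and by 3.92 in spontaneous tumours (adjusted p of limma 0.00229), and Ctsh by 2.40 and by 1.93 (adjusted p of limma 3.88e-08 and 4.42e-07). Of 21 membrane-bound and kallikrein-type serine proteases, 8 rose and 3 fell in cobalt tumours, and 6 rose and 1 fell in spontaneous tumours. That is 52.4% called in cobalt tumours and 33.3% in spontaneous tumours. Klk13, a kallikrein, rose by 2.98 in cobalt tumours (adjusted p of limma 0.00297) and by 3.72 in spontaneous tumours (adjusted p of limma 0.000521). Granule proteases of neutrophils, mast cells and lymphocytes, the usual partners of clade B serpins, had few calls by limma. Of 17, 1 was higher and 1 lower in cobalt tumours, and 0 were higher and 2 lower in spontaneous tumours. At an unadjusted p of limma under 0.05, 3 were higher and 5 lower in cobalt tumours, and 0 higher and 3 lower in spontaneous tumours. Their mean level varied between tumours, at 5.35 to 7.19 in cobalt tumours, 5.24 to 6.86 in spontaneous tumours and 5.64 to 6.17 in control lungs. By limma 11.8% of them were called in each tumour group.

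Genes of blood clotting and plasminogen activation were called about as often as all genes, at 25.9% and 38.5% in cobalt tumours and 33.3% and 30.8% in spontaneous tumours. Of 27 coagulation genes, 2 rose and 5 fell in cobalt tumours, and 3 rose and 6 fell in spontaneous tumours. Thbd, thrombomodulin of the vessel wall, fell by 4.10 in cobalt tumours (adjusted p of limma 0.000118) and by 3.88 in spontaneous tumours (adjusted p of limma 0.000193), while Kng1, the kininogen that kallikrein cleaves, rose by 4.97 and by 3.97 (adjusted p of limma 6.83e-06 and 5.78e-05). Of 13 genes of plasminogen activation, 2 rose and 3 fell in cobalt tumours, and 2 rose and 2 fell in spontaneous tumours. Plat, tissue plasminogen activator, fell by 1.70 in cobalt tumours (adjusted p of limma 0.00886).

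Complement and the other inhibitors give the setting of Serping1. Of 12 genes of the first complement component and the lectin pathway, 4 rose and 3 fell in cobalt tumours, and 3 rose and 4 fell in spontaneous tumours. This was 58.3% in each tumour group, where 34% and 34.6% of all genes were called in cobalt and spontaneous tumours. C1s1, a protease that the Serping1 product blocks, fell by 2.02 in cobalt tumours (adjusted p of limma 0.000168) and by 2.10 in spontaneous tumours (adjusted p of limma 0.000119). C1qb, a chain of the recognition molecule that macrophages make, rose by 0.84 and by 1.39 (adjusted p of limma 0.00555 and 8.83e-05). Of 35 protease inhibitors outside the serpins, 5 rose and 8 fell in cobalt tumours, and 6 rose and 8 fell in spontaneous tumours. Spint1, a Kunitz inhibitor of epithelial membrane proteases, rose by 1.77 in cobalt tumours (adjusted p of limma 9.74e-07) and by 1.71 in spontaneous tumours (adjusted p of limma 1.23e-06), and Reck, a membrane inhibitor of metalloproteases, fell by 3.07 in cobalt tumours and fell by 3.13 in spontaneous tumours (adjusted p of limma 1.42e-05 and 1.17e-05).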

How the data were processed

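Total RNA (100 ng per sample) was amplified and hybridised to 1 array per sample, per the labels' protocols. The deposited values are log2 levels of 45101 probe sets from RMA, as the submitters' processing notes name it; no label states its version or options. The authors' values were used as deposited. RMA forces the arrays to one distribution (array medians 6.32 to 6.45), so levels are relative, and differences of dim probe sets are compressed. Control probe sets (64) were left out. The platform annotation gave 1 symbol to 34945 probe sets, several to 932 and none to 9160, and 18193 genes were each read from the probe set of highest mean.

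The 18 arrays were fitted in 1 model with limma 3.58.1 (lmFit and eBayes, R 4.3.3) for 3 two-sided contrasts, with Benjamini-Hochberg adjustment over all genes. The model was checked on simulated data. Groups came from the sample titles. Every serpin is named, and of the companion lists up to 3 genes with the largest called change in each direction and comparison could be named. Plaur and Plau are exceptions, named beside the tumours with high Serpinb2. Marker lists are given by counts and means. Members and lists were chosen with earlier results of these data known. Alternatives changed the normalisation, the filter on dim genes, the probe set rule, the test, the arrays in the fit and a block on the replicate number. The number of arrays limits the precision.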

Additional observations from a re-analysis of the deposited data

Results flagged for a closer look

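Of 120 groups of 6 arrays (40 serpins in 3 groups), 16 held an array whose gap to its nearest neighbour passed Dixon's 95% limit for 6 samples relative to the group's range; chance gives about 1 in 20. All values are log2 levels, with the range of the other 5 arrays of the group. In cobalt tumours, replicate 5 had 8.40 for Serpind1 (others 6.57 to 7.10), replicate 6 had 10.04 for Serpinb6b (others 8.55 to 9.02) and 3.78 for Serpinb7 (others 3.97 to 4.05), replicate 4 had 5.02 for Serpina9 (others 4.63 to 4.75) and 3.91 for Serpinb6c (others 4.01 to 4.06), and replicate 1 had 4.99 for Serpina3i (others 4.56 to 4.71) and 3.76 for Serpinb9g (others 3.55 to 3.61). In spontaneous tumours, replicate 2 had 7.74 for Serpind1 (others 6.18 to 6.65), replicate 4 had 6.69 for Serpinf2 (others 7.0 to 7.13), and replicate 6 had 6.09 for Serpina1b (others 4.50 to 5.06) and 6.18 for Serpini1 (others 4.98 to 5.41). In control lungs, replicate 1 had 9.80 for Serpinb1a (others 8.31 to 8.46), replicate 2 had 5.60 for Serpina12 (others 4.62 to 4.93), replicate 3 had 9.52 for Serpina3n (others 9.88 to 10.08), and replicate 4 had 5.90 for Serpinb2 (others 3.75 to 4.13) and 4.32 for Serpina7 (others 3.77 to 3.90). The largest gap relative to its range was that of Serpinb1a in control lung 1 (0.895), the array with the high neutrophil markers.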

How the results depend on the processing

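Of the 19 calls of serpins against control lung, 6 held under every alternative run that tested them, and none of the 19 changed direction. The 6 were those of Serping1 and Serpinb1b in both tumour groups and of Serpinb1a and Serpinb5 in cobalt tumours. The run without the 6064 dimmest genes left Serpinb1b out, so its calls were tested in 31 of the 32 alternatives. The 9 serpins lower in cobalt tumours became 6 of 14 tested without the 6064 dimmest genes (1 was higher, and 44.7% of all genes were called), and 4 on the arrays with Xist above 10 (27.8% of all genes), where Serpina1c (adjusted p 0.0683), Serpina3n (0.0663), Serpinb9 (0.0512), Serpinc1 (0.124) and Serpinh1 (0.0666) missed the threshold. The 9 lower in spontaneous tumours became 3 of 14 tested without the 6064 dimmest genes (44.9% of all genes), 4 on the arrays with Xist above 10 (23.7% of all genes) and 4 without control lungs 2 and 4 (27.1% of all genes). On the arrays with Xist above 10 the calls lost there were Serpina1b (adjusted p 0.307), Serpina1c (0.198), Serpina3n (0.583), Serpina6 (0.173), Serpinb9c (0.365) and Serpinc1 (0.182), and Serpinb9 (0.0427) was gained. No serpin was higher in spontaneous tumours by limma on all arrays, against 1 under cyclic loess (Serpina5), 1 with array weights (Serpinf1), 1 on the arrays with Xist above 10 (Serpinb5), 1 without spontaneous tumours 2 and 6 (Serpinf1), and 1 without these and cobalt tumours 4 and 5 (Serpinf1), a choice made after seeing Serpinb2. The causes were not tested. Leaving out 1 array gave 1 higher and 6 to 10 lower serpins in cobalt tumours, 0 to 1 higher and 5 to 9 lower in spontaneous tumours, and 0 between the tumour groups. By exact permutation tests the counts were 1 higher and 9 lower in cobalt and 0 higher and 6 lower in spontaneous tumours; in cobalt tumours Serpinh1 (adjusted p 0.0885) was lost and Serpinb6c (-0.12, adjusted p 0.0115) gained, and in spontaneous tumours Serpina1b (0.0811), Serpina6 (0.068) and Serpinb9c (0.059) were lost. The replicate numbers do not pair the arrays (18 correlations of same-numbered arrays from -0.338 to 0.195, 2 above 0.1); with the replicate block, 1 serpin was higher and 8 were lower in cobalt tumours, 0 higher and 8 lower in spontaneous tumours, and 0 between the tumour groups. Over all genes, 15 were called between the tumour groups, against 82 without cobalt tumour 6 and 65 without spontaneous tumours 2 and 6. The deposited values hold no measure of signal over background, which limits what can be said of the 26 serpins among the 6064 dimmest genes.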
